A study of Rattus norvegicus with 8 samples.

Results

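Hox genes were measured in rat thoracic aorta after nitroglycerin treatment and after vehicle. The members are the gene symbols made of Hox, a cluster letter (a, b, c or d) and a number. Of 19485 symbols in the gene table, 25 were of this form. Together they had 28 of the 27742 rows, because Hoxa5, Hoxb3 and Hoxd4 each had a second row, and for these the row with the higher mean was used. RefSeq (build GRCr8) lists 39 rat Hox symbols, and the other 14 had no row under that symbol and were not analysed here. Those 14 are every symbol of paralog groups 11, 12 and 13, and Hoxa2, Hoxa6, Hoxb1, Hoxb5 and Hoxd1.

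RNA was sequenced from 8 libraries of aorta, 4 from the nitroglycerin group and 4 from the control group. Nitroglycerin is an organic nitrate that relaxes vessels through nitric oxide, and repeated dosing blunts this response (nitrate tolerance), which is the state the series addresses. All animals were male, wild-type Sprague Dawley rats, labelled as 12 weeks old and 180 to 200 g. The nitroglycerin group received nitroglycerin by subcutaneous injection of 100 mg/kg, with 3 doses on each of 3 days, and the control group received its ethanol vehicle on the same schedule. The thoracic aorta was rinsed in saline and kept in RNAlater, so all layers of the wall and any attached tissue entered the RNA. Whether every library is a separate animal is not stated in the labels, so p-values measure the spread between these libraries, which may be technical.

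Hox genes encode homeodomain transcription factors that lie in 4 clusters and give cells their position along the head-to-tail axis of the embryo. Within a cluster the genes are ordered from group 1 at the 3′ end to group 13 at the 5′ end, and genes nearer the 3′ end are switched on earlier and further forward, a property called colinearity. Genes with the same number in different clusters are paralogs that arose by duplication and share roles. Adult smooth muscle cells and fibroblasts keep part of the embryonic pattern, so that vessels of different body levels carry different Hox combinations.

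The thoracic aorta carried an anterior-to-middle Hox pattern at low levels. A level here is FPKM, the number of sequenced fragments scaled to transcript length and to library size. Of the 25 genes, 10 had a mean of at least 1 FPKM over the 8 libraries, which is 40.0%, against 53.3% of all symbols in the table. These were Hoxb4, Hoxb3, Hoxa5, Hoxa3, Hoxb6, Hoxb2, Hoxd4, Hoxc6, Hoxa4 and Hoxd8, in falling order. All but Hoxd8 belong to paralog groups 2 to 6. The highest, Hoxb4, averaged 4.84 ± 1.23 FPKM (SD, n = 8) and stood at the 80.9th percentile of all symbols.

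**Figure D1:**
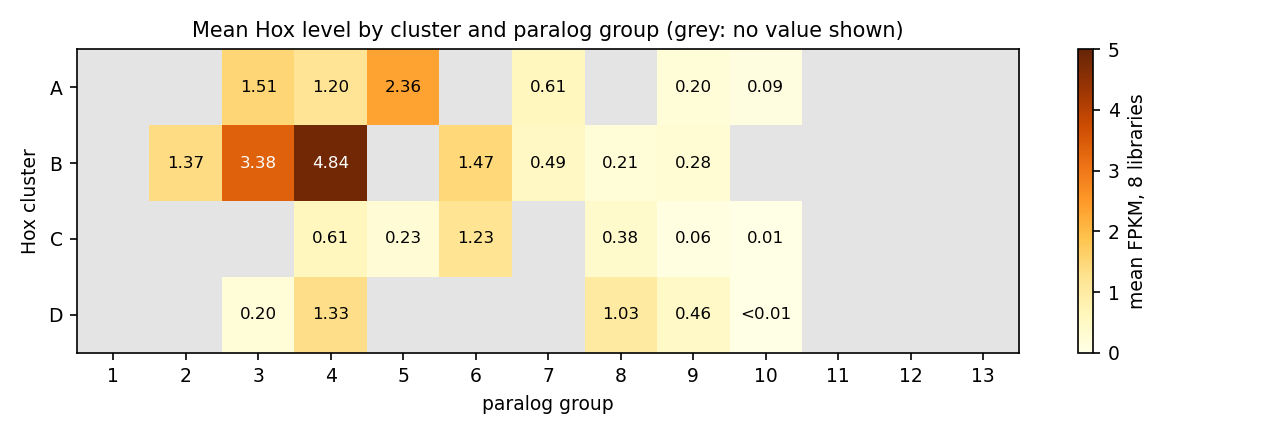
Mean FPKM over the 8 libraries for 24 Hox genes, with the 4 clusters down the page and the 13 paralog groups from left to right. Grey marks a symbol with no row or value here or a position with no gene. The darkest cells are Hoxb4 and Hoxb3, and all 7 genes of groups 9 and 10 are below 1 FPKM.

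The B cluster held 50.7% of the summed Hox FPKM, the A cluster 25.7%, the D cluster 13.0% and the C cluster 10.6% (means of 8 libraries). All shares use 1 row per symbol. They leave out the second rows and the Hox-like rows described below, most of which belong to the A cluster. The largest of these are the second Hoxa5 row, with a mean of 1.65 FPKM, the second Hoxb3 row (1.39 FPKM) and the Hox-A7-like row (1.22 FPKM). Paralog groups 2 to 6 held 83.3%, groups 7 and 8 held 11.6%, and groups 9 and 10 held 4.60%. Group 4 alone, the only group with all 4 paralogs among the members apart from group 9, held 33.6%. In every library groups 2 to 6 made up between 79.4% and 86.9% of the sum.

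The order of levels was graded rather than stepped. The 8-library ranges of all 24 neighbours in that order overlapped. Hoxb4 was above Hoxb3 in 7 of 8 libraries, Hoxb3 above Hoxa5 in 8 of 8 and Hoxa5 above Hoxa3 in 8 of 8. From Hoxa3 down to Hoxa4 the neighbours changed places freely, since the first of each pair was the higher one in only 3 to 5 of 8 libraries. Just inside the 1 FPKM line lay Hoxd8 with a mean of 1.03 FPKM, and just outside it lay Hoxa7 with 0.61 FPKM and Hoxc4 with 0.61 FPKM.

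Between paralogs of one group the B-cluster gene led in groups 3 and 4. Hoxb4 exceeded Hoxa4, Hoxd4 and Hoxc4 in 8 of 8 libraries each, with median ratios of FPKM of 3.98, 3.59 and 8.06. Hoxb3 exceeded Hoxa3 by a median ratio of 2.17 and Hoxd3 by 21.8, each in 8 of 8 libraries. In group 8 it was the D-cluster gene, Hoxd8, that exceeded Hoxb8 and Hoxc8 in 8 of 8 libraries, by median ratios of 4.31 and 2.86.

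**Figure D2:**
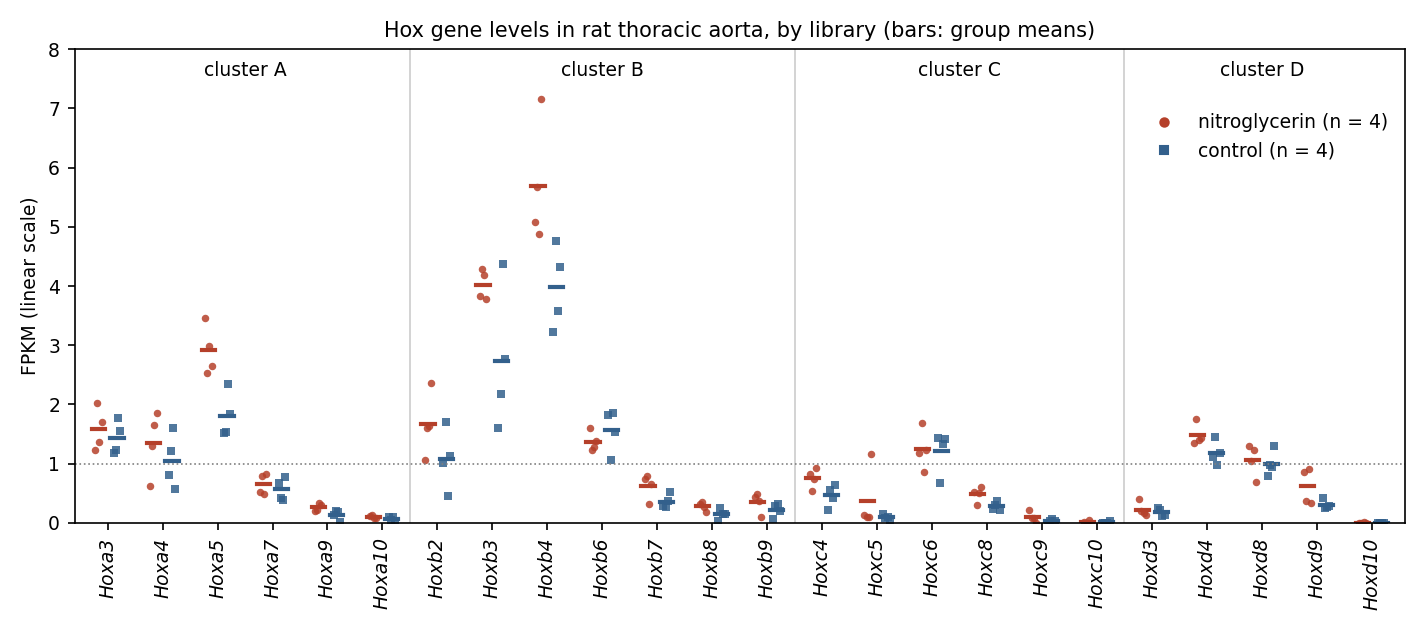
FPKM of 24 Hox genes in each library (points) with group means (bars), nitroglycerin libraries left of control libraries and a dotted line at 1 FPKM. For Hoxa5 and Hoxb4 all 4 nitroglycerin points lie above all 4 control points, and most genes of groups 7 to 10 lie under the line.

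The Hox clusters also hold microRNA genes, and 5 of their mature sequences are shown because they mark positions within the same clusters as the genes measured here. miR-10a lies between Hoxb5 and Hoxb4, next to the highest gene of the family, and miR-10b lies within the annotated span of Hoxd4. The miR-196 genes lie beside group 9 genes, between Hoxc10 and Hoxc9, between Hoxa9 and Hoxa10, and between Hoxb13 and Hoxb9. Sequences are from RefSeq (GRCr8), 5′ to 3′, with the seed (bases 2 to 8) in capitals.
rno-miR-10a-5p, chr10:81779730-81779752, plus strand: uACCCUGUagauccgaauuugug
rno-miR-10b-5p, chr3:80035886-80035907, plus strand: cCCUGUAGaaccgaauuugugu
rno-miR-196a-5p, chr7:135988900-135988921, plus strand: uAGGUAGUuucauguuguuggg
rno-miR-196b-5p, chr4:82661149-82661170, minus strand: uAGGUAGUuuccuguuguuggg
rno-miR-196c-5p, chr10:81727561-81727582, plus strand: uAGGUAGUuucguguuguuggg
The 3 miR-196 sequences share the seed AGGUAGU. In mice miR-196 pairs with the Hoxb8 transcript and directs its cleavage. The seeds of miR-10a and miR-10b differ as annotated, because the listed miR-10b begins further along the shared stretch. Levels of the mature microRNAs were not analysed here.

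No Hox gene passed the test of nitroglycerin against control aortas. The test covered the 10 genes that reached 1 FPKM in 4 or more libraries, the same 10 as above. Of these, 0 passed an adjusted p of 0.05 by limma with Benjamini-Hochberg adjustment over 12977 rows, against 1.35% of all rows tested. As deposited, 9 of the 10 had a positive log2 difference (nitroglycerin minus control), with a median of 0.19, while the median of all rows tested was 0.30 and 86.6% of them were above 0. Hoxa5, Hoxb4 and Hoxb3 had an unadjusted p under 0.05, all with higher nitroglycerin means, a share of 30% beside a background of 34.1%. The nitroglycerin and control libraries did not overlap for Hoxa5 and Hoxb4, 2 of 10, beside 24.2% of all rows in that direction. In whole tissue, fewer cells of a type and less RNA per cell cannot be told apart.

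Because the median of all genes was shifted, the libraries were also rescaled with median-of-ratios factors, after which that median was 0.01. Of the 10 Hox genes 0 were called (background 0.131%), 0 had an unadjusted p under 0.05 (background 11.9%), and 0 had groups that did not overlap (background 8.24%). Their median difference was then -0.02, with 4 above and 6 below 0. The 95% intervals of the 10 differences were between 0.60 and 1.06 log2 units wide as deposited, so each difference is known only to within a range of that width.

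**Figure D3:**
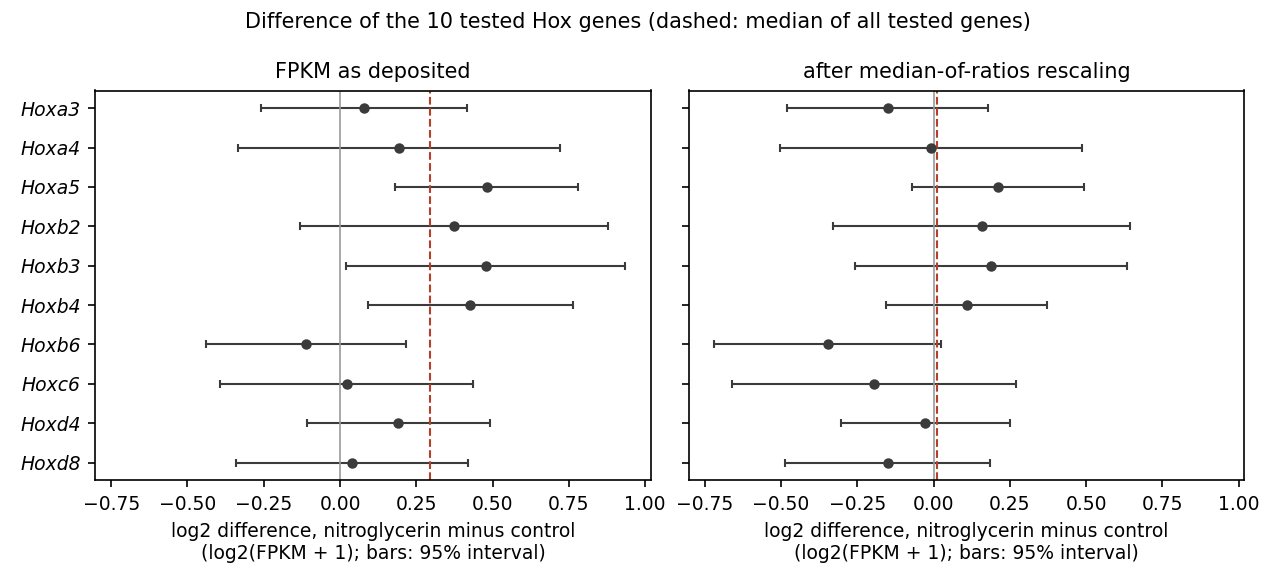
Log2 difference (nitroglycerin minus control, on log2(FPKM + 1)) with its 95% interval for the 10 tested Hox genes, as deposited on the left and after rescaling on the right. The dashed line is the median of all tested genes, 0.30 on the left and 0.01 on the right. As deposited only the intervals of Hoxa5, Hoxb3 and Hoxb4 lie above 0, and after rescaling all 10 cross it.

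Hoxb2, which acts in the hindbrain downstream of Krox20 in mice, was the only measured gene of group 2 (identifier ENSRNOG00000008365). It had 1.06, 1.60, 1.63 and 2.37 FPKM in nitroglycerin libraries, against 1.02, 1.70, 0.449 and 1.13 FPKM in control libraries. The groups overlapped, and control library 3 was the lowest of the 8. The log2 difference was 0.37 ± 0.22 (SE, n = 4 each; adjusted p = 0.25, limma) and 0.16 after rescaling.

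Group 3 directs the pharyngeal arches, and mice without Hoxa3 lack the thymus and parathyroids and have malformed carotid arteries. Hoxb3 (MSTRG.3717) had 3.83, 4.29, 4.18 and 3.78 FPKM in nitroglycerin libraries, against 1.61, 2.18, 4.38 and 2.78 FPKM in control libraries. The nitroglycerin libraries were close together, and control library 3 was above all of them, so the groups overlapped. The difference was 0.48 ± 0.20 (SE; adjusted p = 0.13, limma) and 0.19 after rescaling. The second Hoxb3 row, which holds only assembled transcripts, averaged 1.51 ± 0.68 FPKM in nitroglycerin libraries and 1.27 ± 0.19 FPKM in control libraries (SD, n = 4 each), with a difference of 0.10.

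Hoxa3 (MSTRG.14630) had 1.22, 2.02, 1.37 and 1.70 FPKM in nitroglycerin libraries, against 1.18, 1.24, 1.78 and 1.56 FPKM in control libraries. These values interleave, and the difference was 0.08 ± 0.15 as deposited and -0.15 after rescaling. Its row holds only assembled transcripts, as does the Hoxb6 row, so their levels depend on how the assembly was named. Hoxd3, the remaining paralog, ranged between 0.121 and 0.409 FPKM over the 8 libraries.

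Group 4 genes shape the neck vertebrae in mice, and Hoxb4 is also known for expanding blood stem cells. Hoxb4 (MSTRG.3720) had 5.08, 5.67, 4.88 and 7.15 FPKM in nitroglycerin libraries, against 3.23, 4.77, 3.58 and 4.33 FPKM in control libraries. The lowest nitroglycerin library lay just above the highest control library. The difference was 0.43 ± 0.15 (SE; adjusted p = 0.092, limma), and after rescaling it was 0.11 ± 0.11 with overlapping groups and an adjusted p of 0.75. With each library left out in turn it was between 0.33 and 0.50, with adjusted p-values between 0.070 and 0.19.

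Hoxd4 (MSTRG.13094) had 1.34, 1.76, 1.40 and 1.43 FPKM in nitroglycerin libraries, against 1.12, 1.44, 0.972 and 1.17 FPKM in control libraries. The groups overlapped through control library 2, and the difference was 0.19 ± 0.13 (adjusted p = 0.31, limma). With all rows of the symbol summed it was 0.45 (adjusted p = 0.10, limma). The row added there carries the values of a transcript antisense to Hoxd4, so this sum is not a reading of Hoxd4 alone. Hoxd4 had the smallest coefficient of variation of the 10, 18.2%. Hoxa4 (MSTRG.14631) varied far more, by 41.0%, with 0.613, 1.29, 1.65 and 1.86 FPKM in nitroglycerin libraries, against 0.802, 1.21, 1.60 and 0.579 FPKM in control libraries. The Hoxa4 values interleaved, with a difference of 0.19 ± 0.23. Hoxc4, under the 1 FPKM line, averaged 0.757 ± 0.168 FPKM in nitroglycerin libraries and 0.462 ± 0.183 FPKM in control libraries.

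Group 5 genes act at the junction of neck and thorax, and mice without Hoxa5 have defects of the lung and trachea. Hoxa5 (MSTRG.14633) had 3.46, 2.54, 2.99 and 2.66 FPKM in nitroglycerin libraries, against 1.53, 1.53, 2.34 and 1.84 FPKM in control libraries. All nitroglycerin libraries were above all control libraries. The difference was 0.48 ± 0.13 (SE; adjusted p = 0.067, limma), the lowest adjusted p of the family, and after rescaling it was 0.21 with overlapping groups and an adjusted p of 0.54. With each library left out in turn it was between 0.42 and 0.57, with adjusted p-values between 0.063 and 0.15.

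A second Hoxa5 row with an annotated transcript gave a separate reading of the same symbol. It had 1.62, 2.21, 2.13 and 1.81 FPKM in nitroglycerin libraries, against 1.19, 1.32, 1.54 and 1.42 FPKM in control libraries. Here too the groups did not overlap, with a difference of 0.31 ± 0.12 (adjusted p = 0.11, limma), and 0.07 after rescaling. Both rows come from the same libraries and are not independent of each other. The other measured gene of group 5, Hoxc5, was between 0.0996 and 0.129 FPKM in nitroglycerin libraries 1 to 3 and 1.16 FPKM in nitroglycerin library 4, against 0.0362 to 0.157 FPKM in control libraries.

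Group 6 genes are linked to rib-bearing vertebrae in mice. Hoxb6 (MSTRG.3718) had 1.59, 1.22, 1.28 and 1.38 FPKM in nitroglycerin libraries, against 1.83, 1.07, 1.86 and 1.54 FPKM in control libraries. It was the only one of the 25 genes with a lower mean in nitroglycerin libraries, although control library 2 was the lowest of all 8. The difference was -0.11 ± 0.14 as deposited and -0.35 ± 0.16 after rescaling (adjusted p = 0.45, limma). Hoxc6 (MSTRG.19336) had 1.18, 1.69, 0.862 and 1.23 FPKM in nitroglycerin libraries, against 1.43, 0.672, 1.33 and 1.42 FPKM in control libraries. Control library 2 was the lowest here as well, and the difference of 0.02 ± 0.18 turned to -0.19 after rescaling.

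**Figure D4:**
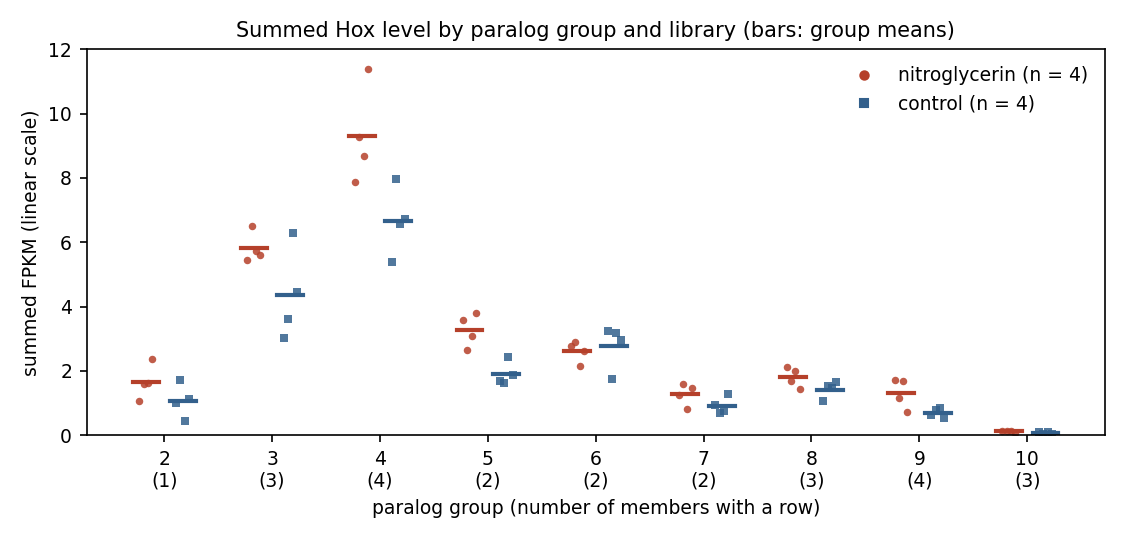
Summed FPKM of the Hox genes of paralog groups 2 to 10 in each library (points) with group means (bars), nitroglycerin left of control. The number of genes in each sum is in brackets. Group 4 averaged 9.29 FPKM in nitroglycerin libraries and 6.66 FPKM in control libraries, and group 10 stayed under 0.15 FPKM in all 8.

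In groups 7 and 8, which pattern the lower thorax, Hoxd8 was the one gene above the line. Hoxd8 (MSTRG.13092) had 1.29, 1.05, 1.22 and 0.684 FPKM in nitroglycerin libraries, against 0.783, 0.984, 0.936 and 1.29 FPKM in control libraries. The values interleaved, with nitroglycerin library 4 the lowest and control library 4 level with the highest nitroglycerin library. The deposited values gave a difference of 0.04 ± 0.17 and the rescaled ones -0.15.

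The other genes of groups 7 and 8 were lower. Hoxa7 averaged 0.656 ± 0.177 FPKM in nitroglycerin libraries and 0.565 ± 0.189 FPKM in control libraries. Hoxb7, which raises angiogenic growth factors in human tumour cells, averaged 0.629 ± 0.213 FPKM in nitroglycerin libraries and 0.358 ± 0.118 FPKM in control libraries. Hoxc8 averaged 0.481 ± 0.127 and 0.283 ± 0.074 FPKM in nitroglycerin and control libraries, and Hoxb8 0.276 ± 0.073 and 0.143 ± 0.085 FPKM. Each of these had overlapping groups.

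Groups 9 and 10, which mark the trunk below the thorax and the limbs, were the lowest. Hoxd9 led with 0.619 ± 0.310 FPKM in nitroglycerin libraries and 0.306 ± 0.078 FPKM in control libraries, with nitroglycerin libraries 1 and 3 well above the others. Hoxb9 averaged 0.345 ± 0.174 FPKM in nitroglycerin libraries and 0.220 ± 0.113 FPKM in control libraries. Hoxc9 was listed at 0 in nitroglycerin library 4 and in control library 1 and reached 0.220 FPKM in nitroglycerin library 1. Hoxa10, which human and mouse endometrium needs for implantation, was between 0.0839 and 0.138 FPKM in nitroglycerin libraries and between 0.0209 and 0.105 FPKM in control libraries. Hoxc10 was above 0 in 3 of 8 libraries and Hoxd10 in 1 of 8, at 0.0109 FPKM in nitroglycerin library 3.

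All 15 genes under the line had a positive difference in the fit without a filter, as did 74.5% of all 27742 rows. The median of the 15 was 0.15, and the median of all 27742 rows was 0.15. As deposited, the group means of 24 of the 25 genes were higher in nitroglycerin libraries, and after rescaling 17 of 25 were. Of the 12977 rows tested, 86.6% had a positive log2 difference as deposited and 52.4% after rescaling. Shares within the family, which no rescaling of a library alters, overlapped between the groups. The B cluster held 51.0% ± 1.62 of the sum in nitroglycerin libraries and 50.4% ± 2.70 in control libraries, and groups 2 to 6 held 82.6% ± 3.22 in nitroglycerin libraries and 84.0% ± 1.11 in control libraries (SD, n = 4 each). The summed FPKM of all 25 genes was between 26.1 and 29.7 in nitroglycerin libraries and between 17.2 and 22.2 in control libraries. After rescaling it was between 22.1 and 25.9 in nitroglycerin libraries and between 19.8 and 24.4 in control libraries, and the groups overlapped.

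The change of level within the D cluster is steep. Hoxd10 had a mean of 0.00136 FPKM over the 8 libraries, Hoxd9 beside it 0.463 FPKM and Hoxd8 1.03 FPKM. The promoters of Hoxd8 and Hoxd10 are shown because these genes are the ends of that step. They run from 250 bases before to 50 bases after the annotated start (RefSeq, GRCr8), with each CG dinucleotide in capitals.
Hoxd8, chr3:80014973-80015272, plus strand: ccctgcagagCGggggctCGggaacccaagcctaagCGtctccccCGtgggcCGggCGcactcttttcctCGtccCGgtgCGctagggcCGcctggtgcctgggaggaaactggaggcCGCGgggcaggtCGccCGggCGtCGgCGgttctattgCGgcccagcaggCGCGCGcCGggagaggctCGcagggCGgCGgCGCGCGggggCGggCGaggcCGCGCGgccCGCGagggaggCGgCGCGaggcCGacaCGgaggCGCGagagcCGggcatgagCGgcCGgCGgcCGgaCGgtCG
Hoxd10, chr3:80001697-80001996, plus strand: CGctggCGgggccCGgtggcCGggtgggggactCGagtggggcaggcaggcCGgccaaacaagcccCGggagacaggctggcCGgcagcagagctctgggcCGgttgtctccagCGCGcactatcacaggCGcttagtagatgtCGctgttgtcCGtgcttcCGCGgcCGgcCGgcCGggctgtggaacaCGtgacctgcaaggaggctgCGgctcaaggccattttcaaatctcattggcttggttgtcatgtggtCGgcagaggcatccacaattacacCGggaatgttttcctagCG

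The Hoxd8 window held 49 CG dinucleotides, at the 99.1st percentile of all RefSeq rat promoters of that length, and the Hoxd10 window held 24, at the 82nd percentile. Over the 21 Hox promoters in the table, covering 20 Hox symbols, the median was 22, and over all 33469 promoters it was 7. The median was 26.5 (range 12 to 49) over the 4 promoters of Hox genes with a mean of at least 1 FPKM. It was 21.5 (range 6 to 29) over the 8 promoters of measured Hox genes below it. Hoxa5, Hoxc6 and the B-cluster genes at or above 1 FPKM had no promoter in the set. The motif TGATNNAT, a site form bound by Hox proteins together with their Pbx partners, was searched on both strands. It was found in 4 of the 21 Hox promoters (19.0%) and in 9.10% of all promoters, and in neither of the windows printed here. Of the 12 promoters of measured Hox genes only 1 held it (8.33%), and of the 4 with a mean of at least 1 FPKM 0 did. The other matches were in promoters of Hox genes with no row here. A match is a description of letters and not a bound site.

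Part of the A cluster appears more than once in the gene table, which bears on Hoxa7, Hoxa9 and Hoxa10. Rows described as Hox-A7-like, Hox-A9 and Hox-A10-like stand beside the rows of those symbols, and a Hox-A6-like row stands in for a gene with no row under its own symbol. The Hox-A9 row had the same FPKM as the Hoxa9 row in 8 of 8 libraries. The Hox-A7-like row averaged 1.58 ± 0.31 FPKM in nitroglycerin libraries and 0.861 ± 0.309 FPKM in control libraries (SD, n = 4 each), 2.00 times the Hoxa7 row over all libraries. Its groups did not overlap, with a difference of 0.48 ± 0.17 (adjusted p = 0.099, limma) and 0.26 after rescaling. Reads of near-identical copies can be split between rows, so the levels of these genes are uncertain. With the Hox-A7-like row added, Hoxa7 averaged 1.83 FPKM and would be the 11th gene above the line.

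**Figure D5:**
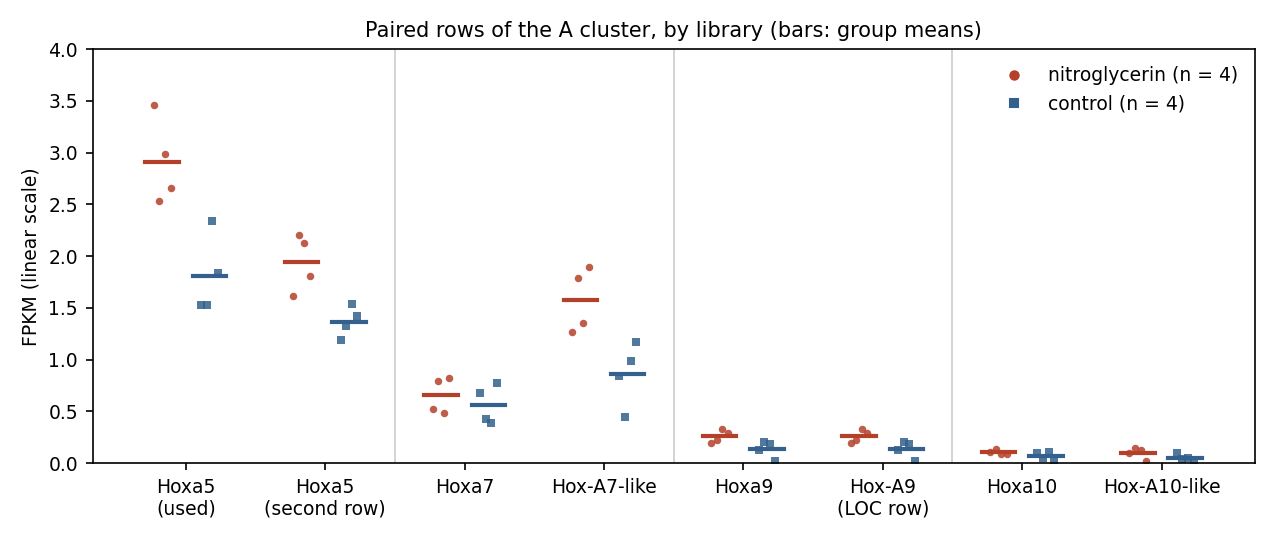
FPKM in each library (points) with group means (bars) for Hoxa5, Hoxa7, Hoxa9 and Hoxa10 beside the other row of the same or a near-identical gene, nitroglycerin left of control. The Hoxa9 rows coincide, and the Hox-A7-like row lies above the Hoxa7 row in all 8 libraries.

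The lncRNA table is a list of predicted long non-coding transcripts. Positions were bounded by the outermost Hox rows with an assembly (MSTRG) number in each cluster. Within these bounds the table held 7 transcripts, 2 in the A cluster, 2 in the C cluster and 3 in the D cluster. The C bounds run only between Hoxc6 and Hoxc4, and the D bounds between Hoxd9 and Hoxd3. Hox genes without such a number, among them Hoxb9, Hoxc10 and Hoxd10, set no bounds, so parts of the B, C and D clusters were not covered. Of the 4 that could be tested, 0 were called (limma on log2(FPKM + 0.1), background 0.0418% of 2390), 1 had an unadjusted p under 0.05 as deposited, with higher nitroglycerin values (background 7.62%), and 0 had one after rescaling (background 4.94%). That one, MSTRG.14627.1, is a single-exon transcript antisense to a gene annotated as NEWGENE_2813, at chr4:82127156-82131471 on the plus strand (Rnor_6.0). It had 2.27, 2.95, 2.89 and 2.47 FPKM in nitroglycerin libraries, against 1.69, 1.77, 1.92 and 1.48 FPKM in control libraries. All nitroglycerin libraries were above all control libraries, as for 7.28% of transcripts tested. The difference was 0.59 ± 0.24 (adjusted p = 0.55, limma), and after rescaling it was 0.22 with overlapping groups.

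In the D cluster MSTRG.13093.1 runs antisense to Hoxd4 at chr3:61631685-61634192 on the minus strand (Rnor_6.0), and the second Hoxd4 row of the gene table carries its values. It had 1.62, 1.29, 1.34 and 0.747 FPKM in nitroglycerin libraries, against 0.627, 1.15, 0.363 and 0.234 FPKM in control libraries. The groups overlapped through control library 2, and the log2(FPKM + 0.1) difference was 1.09 ± 0.55 (adjusted p = 0.58, limma). MSTRG.13094.1, a sense variant of Hoxd4, was at 0.248 FPKM in nitroglycerin library 3 and between 2.52 and 3.10 FPKM in the other nitroglycerin libraries, against 1.42 to 2.39 FPKM in control libraries. The sources used here do not say whether counting used strand, so reads of Hoxd4 and of its antisense partner cannot be told apart. The remaining C and D cluster transcripts were listed at 0 in at least 5 of 8 libraries.

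Hox proteins bind DNA with TALE homeodomain partners of the Pbx, Meis and Pknox families, and most of these were present at levels near those of the Hox genes. Of 11 TALE genes listed, with Tgif1 and Tgif2 from outside these families, 10 had a row and 9 were tested. None was called by limma (background 1.35%), 5 had an unadjusted p under 0.05 with higher nitroglycerin means (background 34.1%), and 1 had one after rescaling (background 11.9%). Of the 9, 4 had higher groups that did not overlap as deposited (background 24.2%), and 0 had groups that did not overlap after rescaling (background 8.24%). The genes given below are among those 4. The median difference of the 9 was 0.40 as deposited and 0.11 after rescaling, against 0.30 and 0.01 for all rows tested. Meis1, the highest, had 6.88 ± 1.22 FPKM in nitroglycerin libraries and 4.06 ± 0.92 FPKM in control libraries (SD, n = 4 each). Its groups did not overlap, with a difference of 0.65 (adjusted p = 0.065) and 0.32 after rescaling (adjusted p = 0.39). Meis3 had 4.11 ± 0.51 and 2.83 ± 0.10 FPKM in nitroglycerin and control libraries (difference 0.41, adjusted p = 0.061), and Pbx3 had 2.44 ± 0.13 and 1.79 ± 0.10 FPKM (difference 0.30, adjusted p = 0.079). After rescaling the differences were 0.11 for Meis3 (adjusted p = 0.73, limma) and 0.04 for Pbx3 (adjusted p = 0.89, limma), and the groups of Meis1, Meis3 and Pbx3 overlapped.

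Polycomb proteins keep Hox genes silent and trithorax proteins keep them active, and CTCF divides the clusters into domains. Of 32 such regulators, 29 had a row and 26 were tested. Of the 26, 1 was called, Ctcf, higher in nitroglycerin libraries as deposited, beside 1.29% of all rows in that direction. It had 7.46, 6.99, 7.54 and 8.46 FPKM in nitroglycerin libraries, against 3.92, 5.08, 4.67 and 4.97 FPKM in control libraries. The groups did not overlap, with a difference of 0.61 ± 0.11 (adjusted p = 0.049, limma), and after rescaling it was 0.28 with an adjusted p of 0.18. The call was lost without any 1 library except nitroglycerin library 2, with adjusted p-values between 0.050 and 0.14 over the 8 fits. The median of the 26 was 0.34 as deposited and 0.01 after rescaling.

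Retinoic acid switches on the 3′ Hox genes in the embryo. Of 19 genes of its signalling, all with a row, 12 were tested and none was called. As deposited 3 of the 12 had an unadjusted p under 0.05, all higher (background 34.1%). After rescaling 1 was higher and 1 lower at that level (background 11.9%). Rarb, a receptor that is itself a retinoic acid target, had 2.96 ± 0.47 FPKM in nitroglycerin libraries and 1.58 ± 0.45 FPKM in control libraries, without overlap (background 24.2%; difference 0.62, adjusted p = 0.061, limma, and 0.36 after rescaling with an adjusted p of 0.33). Cyp26b1, which degrades retinoic acid, had 3.70 ± 0.70 FPKM in nitroglycerin libraries and 1.75 ± 0.77 FPKM in control libraries, also without overlap (difference 0.80, adjusted p = 0.064, and 0.52 after rescaling with an adjusted p of 0.47). Crabp2, which carries retinoic acid to its receptors, had 3.31 ± 0.84 and 1.74 ± 0.85 FPKM in nitroglycerin and control libraries (difference 0.69, adjusted p = 0.092, and 0.43 after rescaling with an adjusted p of 0.48). The groups of all 3 genes overlapped after rescaling. Rarg, another receptor, went the other way, with a difference of -0.01 as deposited and -0.32 after rescaling (adjusted p = 0.27, limma). Its rescaled nitroglycerin libraries were all below its control libraries (background 8.24% in either direction). The median of the 12 was 0.38 as deposited and 0.07 after rescaling.

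Other transcription factors of body position and mesoderm identity were mostly low. Of 53 listed, 43 had a row and 10 were tested, among them Prrx1, Prrx2, Tbx18, Twist1 and Meox2. Gata6, a smooth muscle and endodermal factor, was the highest with 5.98 ± 0.74 FPKM in nitroglycerin libraries and 5.05 ± 1.44 FPKM in control libraries. None of the 10 was called, and their median difference was 0.22 as deposited and -0.05 after rescaling. Of 29 listed non-coding genes of the clusters and neighbouring genes, 13 had a row, 9 were tested, all of them neighbours, and none was called. Skap2, beyond the 3′ end of the A cluster, had 4.27 ± 0.25 FPKM in nitroglycerin libraries and 2.83 ± 0.45 FPKM in control libraries (difference 0.47, adjusted p = 0.060, limma), and 0.17 after rescaling.

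The libraries were checked for their tissue. Smooth muscle genes were high in all, with Acta2 at a mean of 1839 FPKM and Myh11 at 140 FPKM, and summed lymphocyte and mesothelium markers stayed under 0.4 FPKM each. The summed endothelial markers were between 66.5 and 76.3 FPKM in nitroglycerin libraries and between 38.7 and 61.9 FPKM in control libraries, and summed skeletal muscle markers between 15.1 and 22.0 FPKM in nitroglycerin libraries and between 22.1 and 32.4 FPKM in control libraries. Both gave a two-sided exact permutation p of 0.0286, the smallest that 70 splits allow, and 0.157 after adjustment over 11 marker lists. In rescaled libraries the exact permutation p was 0.886 for the endothelial and 0.0286 for the skeletal muscle markers (0.943 and 0.157 adjusted). The summed smooth muscle markers were between 1390 and 2795 FPKM in nitroglycerin libraries and between 2232 and 2907 FPKM in control libraries (exact permutation p = 0.171), and the median difference of the 9 tested was -0.23 as deposited and -0.62 after rescaling. After rescaling 4 of the 9 were lower in nitroglycerin libraries at an unadjusted p under 0.05, none after adjustment, and the sum gave an exact permutation p of 0.0571 (0.210 adjusted). The summed fibroblast markers overlapped as deposited, with 4237 to 5307 FPKM in nitroglycerin libraries and 4035 to 6452 FPKM in control libraries (exact permutation p = 0.8). After rescaling they did not overlap, with 3668 to 4468 in nitroglycerin libraries and 4974 to 6478 in control libraries (exact permutation p = 0.0286, 0.157 adjusted). Adipocyte markers reached 145.7 FPKM in nitroglycerin library 1 and stayed between 8.64 and 24.6 FPKM in control libraries. The part of these cells in the Hox levels was not tested. Depth was given as coverage per base for each FPKM, 6.77 to 8.39 in nitroglycerin libraries and 7.48 to 8.86 in control libraries (exact permutation p = 0.343).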

How the data were processed

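Gene levels are FPKM values calculated by the authors and deposited for every library. Predicted lncRNA transcripts come with FPKM, coverage (a read signal averaged over bases) and a CPC and a CNCI coding-potential score, per the file headers, and the scores were not used. StringTie 1.3.0, HISAT2 2.0 and Bowtie 0.12.2 appear in the submitters' processing notes with 2 builds, mm8 and Rnor_6.0, and with no role for any of them. lncRNA coordinates on chromosome 1 reach 282487891, and transcript identifiers are those of rat. FPKM are relative and are not counts, so no counting interval was computed.

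The FPKM values were tested as log2(FPKM + 1) with limma 3.58.1 in R 4.3.3 (mean-variance trend, Benjamini-Hochberg over the 12977 rows that reached 1 FPKM in 4 or more libraries), and the lncRNAs as log2(FPKM + 0.1) over the 2390 transcripts that reached 0.1 FPKM in 4 or more. On these scales the differences of low genes are understated. An adjusted p under 0.05 was a call. The fit was tested on simulated data. Alternatives were another pseudocount, other filters, median-of-ratios and quantile scaling, robust moderation, a fat-marker covariate, a replicate block, summed or added rows, and leaving out each library. Single values were compared by exact permutation over 70 splits.

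Hox genes with a mean of at least 1 FPKM in either group are given in every library. Of each other list, the genes named were drawn from those called, the 4 of lowest unadjusted p under 0.05 and the 4 of highest level, with a few others. The members and lists were chosen with earlier results of these data known. Python 3.11.15 with pandas 2.3.3, scipy 1.17.1 and matplotlib 3.10.9 made the summaries and plots. Sequences are from RefSeq GRCr8, matched by symbol or microRNA name, and Rnor_6.0 coordinates were read from the lncRNA table. Counts include 1 Hox gene and 1 other transcription factor that are not reported here.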

Additional observations from a re-analysis of the deposited data

Results flagged for a closer look

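In 5 of 71 groups of 4 libraries (7.04%) 1 library stood apart from the other 3 by Dixon's criterion. Chance alone gives about 1 in 20 for normally distributed values. Where the other 3 libraries are at 0, any value above 0 stands apart, so that share is no background. This holds for Hoxc10, Hoxd10 and MSTRG.19339.1. Hoxc5, a paralog of Hoxa5, was at 1.16 FPKM in nitroglycerin library 4, while the other 3 lay between 0.0996 and 0.129 FPKM. Hoxc6 was at 0.672 FPKM in control library 2, while the other 3 control libraries lay between 1.33 and 1.43 FPKM. Hoxc10 was at 0.0224 FPKM in control library 4 and listed at 0 in the other 3 control libraries. Hoxd10 was at 0.0109 FPKM in nitroglycerin library 3 and listed at 0 in the other 3 nitroglycerin libraries. The C-cluster transcript MSTRG.19339.1 was at 1.94 FPKM in nitroglycerin library 4 and listed at 0 in the other 3, and Hoxc5 was high in that same library. The transcript was also at 1.41 FPKM in control library 1 and 0.393 FPKM in control library 4. Hoxc5 was at only 0.157 and 0.0362 FPKM in those control libraries.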

How the results depend on the processing

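The number of Hox genes called stayed at 0 under every alternative tried, and so did the number of tested cluster lncRNAs called. Many alternatives called few rows of the whole table, so 0 Hox calls there says little about these genes. Of 12977 rows, 7 were called higher and 0 lower with a pseudocount of 0.1, and 2 higher and 1 lower with the fat-marker covariate. The most were called with annotated rows only, 813 higher and 15 lower of 10104, where 8 Hox genes were tested. The count at an unadjusted p under 0.05, 3 as deposited and all higher, became 0 when libraries were rescaled and 1 when they were quantile-normalized (Hoxb6, lower, -0.39). Over all 12977 rows that count was 4431 higher and 133 lower as deposited. For all rows it was 714 higher and 836 lower when rescaled, and 788 higher and 743 lower when quantile-normalized. The Hox count was 4 with all rows of a symbol summed, beside 4029 of all 12117 rows higher. There Hoxd4 joined through its second row, which carries an antisense transcript. The Hox count was also 4 with Hox-like copy rows added, an alternative chosen after seeing the data. The Hox count lay between 1 (without nitroglycerin library 4) and 3 with each library left out, beside 3183 to 5034 of all 12977 rows higher. After rescaling the Hox count was 0, and between 0 and 2 with each library left out (1, lower, without control library 2, and 2, higher, without control library 3). Over all 12977 rows these rescaled fits gave 522 to 805 higher and 673 to 980 lower. A filter of 5 FPKM in 4 libraries left no Hox gene to test. The number of genes at or above the level line, 10 at a mean of 1 FPKM, was 21 at 0.1 FPKM, 3 at 2 FPKM, 0 at 5 FPKM and 5 with at least 1 FPKM in every library. The 1 call among the surrounding lists was 0 after rescaling and between 0 and 1 with each library left out.

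Of 208 gene differences under alternatives 188 kept their direction and 20 turned negative. Rescaling and quantile normalization gave -0.15 and -0.19 for Hoxa3, -0.0091 and -0.058 for Hoxa4, -0.19 and -0.27 for Hoxc6, -0.026 and -0.061 for Hoxd4, and -0.15 and -0.24 for Hoxd8. With each library left out Hoxa3 ranged between -0.0012 (without nitroglycerin library 2) and 0.15, and Hoxc6 between -0.11 (without control library 2; -0.070 without nitroglycerin library 2) and 0.11, and leaving out nitroglycerin library 1 or control library 1 gave -0.014 and -0.013 for Hoxd8, whose range reached 0.13. The cause was not tested.

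Same-numbered libraries deviated together with correlations of -0.01 to 0.13. With only 4 such correlations, this cannot settle whether the numbers pair the libraries. Of the 4 nitroglycerin libraries 2 deviated most like the control library of their own number. With the replicate block 0 rows of the whole table were called, against 175 without it, 0 Hox genes were called and 3 had an unadjusted p under 0.05. With the block and rescaling that count was 0, and the differences were -0.15 for Hoxa3, -0.0091 for Hoxa4, -0.19 for Hoxc6, -0.026 for Hoxd4 and -0.15 for Hoxd8.

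Depth is known only as coverage per base, 6.77 to 8.86 for each FPKM, so a gene at 0.1 FPKM is covered less than 1 time on average and the order of the lowest Hox genes is uncertain.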

Other observations

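Within the family, paralog group 5 held 12.0% ± 1.81 of the summed Hox FPKM in nitroglycerin libraries and 9.51% ± 1.20 in control libraries, while group 6 held 9.53% ± 1.23 in nitroglycerin libraries and 14.1% ± 4.14 in control libraries (SD, n = 4 each). The ranges overlapped for both groups, and no test was made of these shares.

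Hnrnpa1, a splicing factor gene that flanks the C cluster, was the one tested neighbour with a negative difference as deposited. It had 11.7, 10.4, 12.5 and 10.9 FPKM in nitroglycerin libraries, against 10.8, 14.5, 14.7 and 13.4 FPKM in control libraries, with overlapping groups. The log2 difference was -0.20 ± 0.13 (SE; adjusted p = 0.28, limma). In rescaled libraries the groups did not overlap, and the difference was -0.56 ± 0.08 with an adjusted p of 0.055 (limma).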
